A study of Homo sapiens with 6 samples.

Results

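The 43 transcripts described here encode the enzymes that copy DNA and the E2F factors that drive their transcription. They were taken by gene symbol from the 58735 genes of the count table, each symbol matched 1 gene identifier, and all 43 were abundant enough to be tested, with 167 to 12714 counts per library. RNA was sequenced from LX-2 cells, a long-established line of human hepatic stellate cells, the liver cells that lay down scar matrix. In 3 libraries the cells had been transfected with NSUN2 siRNA, which targets an enzyme that methylates cytosines in RNA, and 48 hours later received TGF-β1 at 5 ng/ml for 24 hours. The design text names NAT10 as the target instead, and the sample labels were followed. In the other 3 libraries the cells had the same siRNA and no TGF-β1, and their time of harvest is not labelled. Every library thus carries the siRNA, the genotype is labelled wild type, and cells without the siRNA were not analysed here, so no effect of the siRNA can be read from these values. The labels call the replicates biological without naming separate cultures, and the p-values measure the spread between these libraries.

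Replication begins when the origin recognition complex, CDC6 and CDT1 load the MCM2 to MCM7 ring on DNA. CDC45 and the GINS complex then join the ring to make the active helicase, and polymerases follow on the sliding clamp PCNA, which the RFC clamp loader places. E2F1, E2F2 and E2F3 activate the transcription of most of these genes as cells pass from G1 into S phase, and the atypical factors E2F7 and E2F8 repress them. E2F activity is held down by the retinoblastoma family, and TGF-β is known in many epithelial cells for slowing entry into S phase.

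The stretches before the start sites of 8 of the genes are shown first, because MCM2 to MCM7 all fell and E2F sites are the shared feature looked for. They come from RefSeq (GRCh38.p14), run 5′ to 3′ on the gene's strand from 200 bases before the annotated start to 20 bases after it, and capitals mark an E2F motif. The motif was TTTCCCGC, TTTGGCGC, TTTCGCGC or TTTGCCGC on either strand, and overlapping matches were counted as 1 site. MCM2, MCM3, MCM6, MCM7, PCNA and E2F2 were lower with TGF-β1, and E2F3 and MCM10 were higher. MCM7, PCNA and E2F3 had more than 1 RefSeq window, and the window with the most E2F sites is shown. Their other windows held no E2F motif. RFC2, FEN1, RRM2, TK1, CHAF1B and SLBP were also lower, held no E2F motif and are not shown. A link between the motif and the falls was not tested.
MCM2 (chr3:127598211-127598430, plus strand): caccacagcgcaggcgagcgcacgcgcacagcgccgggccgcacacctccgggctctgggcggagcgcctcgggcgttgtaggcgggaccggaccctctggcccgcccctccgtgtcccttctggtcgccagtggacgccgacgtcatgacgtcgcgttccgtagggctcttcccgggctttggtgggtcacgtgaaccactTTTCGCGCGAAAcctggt
MCM3 (chr6:52284723-52284942, minus strand): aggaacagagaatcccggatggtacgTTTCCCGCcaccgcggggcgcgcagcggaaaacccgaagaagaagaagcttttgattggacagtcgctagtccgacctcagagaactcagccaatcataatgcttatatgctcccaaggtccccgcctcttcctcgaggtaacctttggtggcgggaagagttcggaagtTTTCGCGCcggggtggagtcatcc
MCM6 (chr2:135876424-135876643, minus strand): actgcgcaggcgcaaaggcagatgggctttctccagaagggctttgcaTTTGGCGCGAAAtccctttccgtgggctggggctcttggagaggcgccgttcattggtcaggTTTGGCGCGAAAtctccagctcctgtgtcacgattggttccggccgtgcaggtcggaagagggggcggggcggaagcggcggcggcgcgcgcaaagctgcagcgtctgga
MCM7 (chr7:100101378-100101597, minus strand): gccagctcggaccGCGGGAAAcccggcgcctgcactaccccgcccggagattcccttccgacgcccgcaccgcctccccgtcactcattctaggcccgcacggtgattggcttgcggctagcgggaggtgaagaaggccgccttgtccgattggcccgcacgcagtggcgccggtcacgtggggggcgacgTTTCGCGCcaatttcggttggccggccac
PCNA (chr20:5126603-5126822, minus strand): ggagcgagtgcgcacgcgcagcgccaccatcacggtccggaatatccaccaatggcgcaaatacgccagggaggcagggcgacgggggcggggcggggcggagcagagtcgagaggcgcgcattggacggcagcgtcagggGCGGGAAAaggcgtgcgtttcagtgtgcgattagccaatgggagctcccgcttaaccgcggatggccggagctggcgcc
E2F2 (chr1:23531214-23531433, minus strand): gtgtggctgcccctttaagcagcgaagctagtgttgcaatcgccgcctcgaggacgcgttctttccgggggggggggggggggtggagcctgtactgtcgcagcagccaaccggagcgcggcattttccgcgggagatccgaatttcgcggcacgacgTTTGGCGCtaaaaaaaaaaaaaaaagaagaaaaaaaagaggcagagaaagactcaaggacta
E2F3 (chr6:20401679-20401898, plus strand): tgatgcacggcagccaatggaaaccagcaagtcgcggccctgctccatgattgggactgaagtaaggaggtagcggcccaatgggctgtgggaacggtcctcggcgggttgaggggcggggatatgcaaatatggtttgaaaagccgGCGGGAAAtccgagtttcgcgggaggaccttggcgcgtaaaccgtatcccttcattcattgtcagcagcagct
MCM10 (chr10:13161358-13161577, plus strand): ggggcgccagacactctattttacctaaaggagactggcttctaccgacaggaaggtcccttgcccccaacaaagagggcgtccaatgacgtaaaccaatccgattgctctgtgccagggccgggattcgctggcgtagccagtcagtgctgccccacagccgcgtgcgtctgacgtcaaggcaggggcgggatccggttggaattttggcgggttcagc

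In the full windows of 300 bases, from 250 before the start to 50 after it, 20 of the 38 members with a RefSeq entry held an E2F motif (52.6%), against 3.99% of all 27305 gene symbols with a window. All 4 genes of the MCM2 to MCM7 ring with an entry held a site, and MCM3, MCM6 and MCM7 each held 2 separate sites. Both MCM6 sites read TTTGGCGCGAAA, with a different form of the motif on each strand. The MCM2 site TTTCGCGCGAAA is symmetric and reads the same on both strands. Of the 17 members with an entry that were lower with TGF-β1, 11 held a motif (64.7%), and of the 19 that passed the test in neither direction 8 did (42.1%). MCM10 had none of these letters in its window, E2F3 had 1 site and E2F1 had 2. The CCAAT box stood in 22 of the 38 members (57.9%, against 39.7% of all symbols), and the cell cycle homology region TTTGAA or TTCGAA in 3 (7.89%, against 19.5%). A match is a description of the letters only. The members were listed as replication and E2F genes, so an excess of E2F motifs over all symbols can come from the choice of list. The shares in lower and uncalled members were not tested against each other. MCM4, MCM5, GINS4, E2F8 and CCNE2 had no entry in the table.

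Libraries held 25828504 to 29978361 counts with TGF-β1 and 26957170 to 30034762 counts without it. NSUN2 was measured at 103, 97.0 and 102 CPM (read counts scaled to a common library size with TMM factors, CPM below) in cells given siRNA and TGF-β1, against 81.4, 82.9 and 84.4 CPM with siRNA alone (log2 fold change 0.28 ± 0.04, adjusted p = 1.57e-06). With no cells lacking the siRNA in the analysis, the extent of its knockdown was not measured. NAT10, the target by the design text, stood at 66.4 to 70.8 CPM with TGF-β1 and 62.9 to 72.3 CPM without. SMAD7, an immediate target of TGF-β, was at 81.0 to 91.2 CPM with TGF-β1 and 14.8 to 19.1 CPM without. Of 12 stellate or mesenchymal markers 10 were abundant enough to be tested, with COL1A1 and VIM high, LRAT at 0 and DES near 0 in all libraries. Markers of hepatocytes summed to 21.3 to 23.2 CPM with TGF-β1 and 23.6 to 27.4 CPM without, nearly all from SERPINA1. Leukocyte markers summed to 2.74 to 5.76 CPM with TGF-β1 and 7.91 to 10.1 CPM without, mostly CD14, which was called lower (-1.18 ± 0.24, adjusted p = 0.0014). Cholangiocyte or epithelial markers summed to 3.94 to 5.37 CPM with TGF-β1 and 2.72 to 3.58 CPM without, and KRT7 among them was called higher (0.60 ± 0.20, adjusted p = 0.0164). Endothelial markers summed to 1.55 to 2.02 CPM with TGF-β1 and 1.75 to 2.50 CPM without. Stellate markers summed to 5132 to 5780 CPM with TGF-β1 and 2641 to 2683 CPM without, a sum carried by COL1A1 (3776 to 4359 CPM with TGF-β1 and 1412 to 1424 CPM without). The markers did not move one way: COL1A1, COL1A2, COL3A1, PDGFRB and VIM were called higher (VIM not with library totals, where its value was -0.041), and ACTA2, THY1, HAND2 and RELN lower. The THY1 call was kept in 12 of 18 alternative settings and the VIM call in 11 of 18. PDGFRA was tested but averaged only 0.29 CPM, and it was not called. ACTA2, the smooth muscle actin of activated stellate cells, had 4.73, 3.803 and 4.33 CPM with TGF-β1 and 6.97, 7.78 and 6.71 CPM without (log2 fold change -0.74 ± 0.16, adjusted p = 0.000171). The part of these markers in the results below was not tested.

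With TGF-β1, replication transcripts fell by small amounts and not all together. Of the 43 members, 20 were lower and 2 higher at an adjusted p under 0.05 (edgeR quasi-likelihood test, Benjamini-Hochberg adjustment over all 17215 tested genes). That is 46.5% lower and 4.65% higher, where 18.7% of all tested genes were lower and 20.2% higher (38.9% in either direction). The members were chosen with earlier results of these data known, and the part of that choice in these shares was not tested. Of 60 replication and E2F/RB genes outside the 43, 21.7% were lower and 5.00% higher. Among the 9546 tested genes within the members' range of mean level, 23.2% were lower and 28.8% higher. The median log2 fold change of the members was -0.13, against 0.019 for those genes and -0.0082 for all tested genes. The falls that passed ran from 5.74% (POLE) to 44.0% (E2F2), and only E2F2 and E2F8 had a log2 fold change below -0.5. The 3 TGF-β1 libraries lay below all 3 siRNA libraries for 24 members and above them for 4, while 15 overlapped, where 23.3% of all tested genes lay below and 24.1% above (47.4% in all). Summed over members, the level was 4070, 4040 and 4104 CPM in the TGF-β1 libraries and 4509, 4586 and 4530 CPM in the siRNA libraries. In bulk RNA, fewer cells carrying these transcripts and less RNA per cell cannot be told apart.

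The scale between libraries bears on changes of this size. With library totals alone the median over all tested genes moved to -0.13, the members gave 30 lower and 0 higher, and their median was -0.24. With those totals 31.1% of all tested genes were lower and 11.7% higher. The 20 members called lower were lower on both scales, and the 2 called higher were not called with totals.

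**Figure D1:**
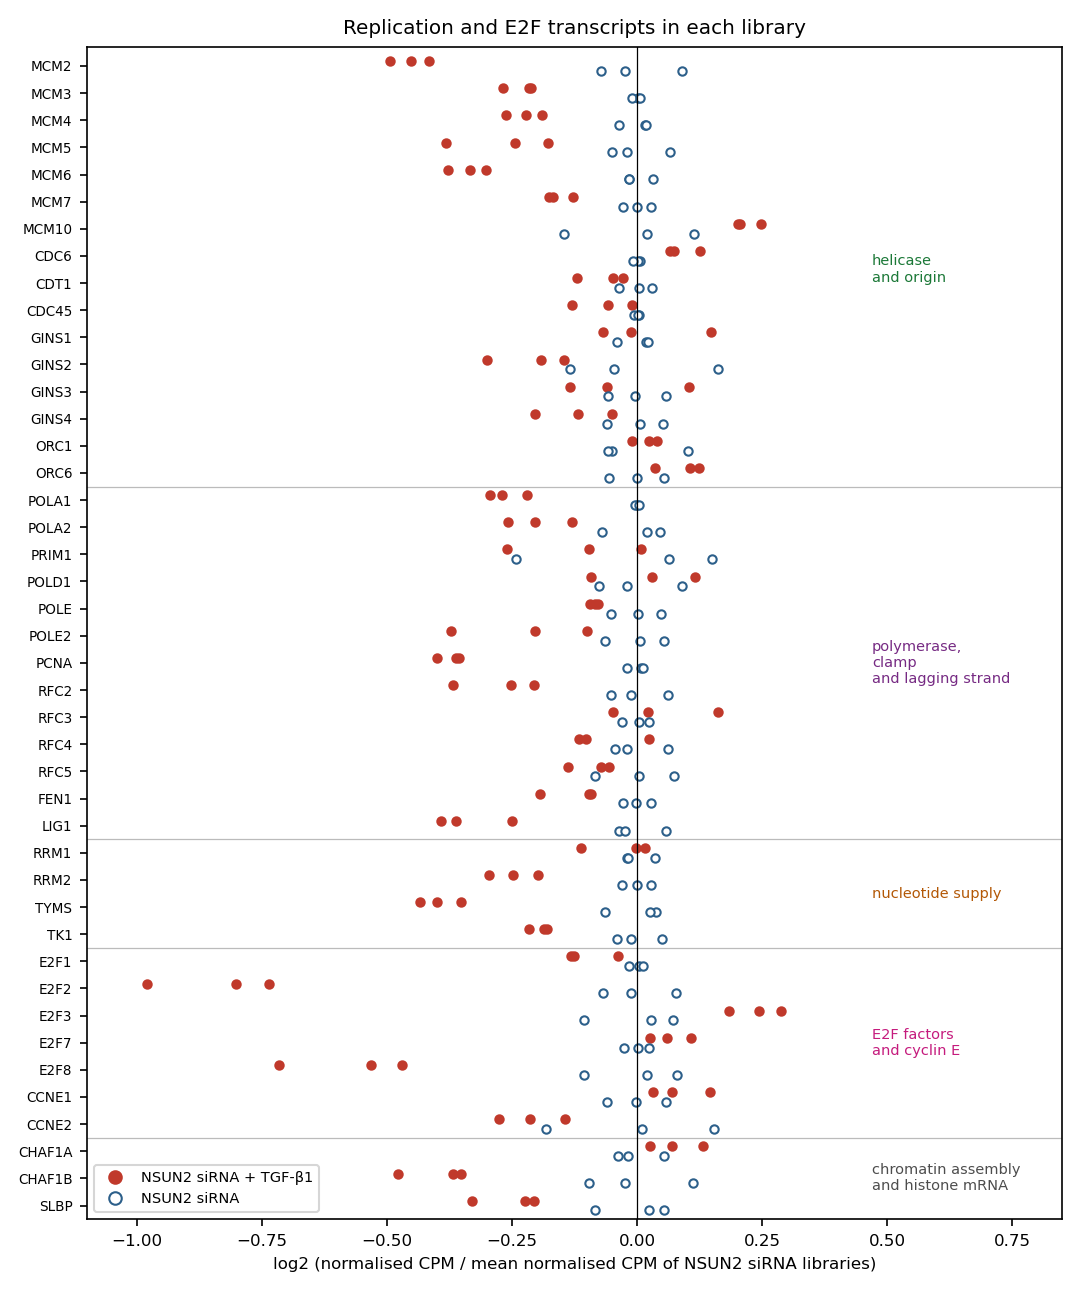
Level of each of the 43 transcripts in each library as log2 of normalised CPM over the mean of the NSUN2 siRNA libraries, by role. Filled points are the 3 NSUN2 siRNA plus TGF-β1 libraries and open points the 3 NSUN2 siRNA libraries; for 24 transcripts all filled points lie below all open ones, and for 4 above.

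All 6 subunits of the MCM2 to MCM7 ring fell, and in each the groups did not overlap. Of all tested genes 18.7% were called lower, and 23.3% lay below without overlap. MCM2 (ENSG00000073111, chromosome 3, 127598223 to 127622436, plus strand, hg38) was at 119, 122 and 116 CPM with TGF-β1 and 160.5, 174 and 155 CPM without, a log2 fold change of -0.45 ± 0.041 (SE; adjusted p = 2.09e-12). Its fall was the largest of the ring, at 27.0%. MCM6 was at 84.4, 80.0 and 82.4 CPM with TGF-β1, against 103, 103 and 106 CPM without (-0.34 ± 0.044, adjusted p = 2.48e-08).

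MCM5 had 175, 152 and 167 CPM in TGF-β1 libraries and 196, 208 and 192 CPM in siRNA libraries, and it varied most among TGF-β1 replicates in the ring. MCM3 had 263, 272 and 273 CPM with TGF-β1 and 317, 314 and 318 CPM without. MCM4 had 347, 330.2 and 339 CPM with TGF-β1 and 401, 386 and 401 CPM without. These 3 changed by -0.27 ± 0.042, -0.23 ± 0.032 and -0.22 ± 0.032 (adjusted p = 3.07e-06, 1.02e-07 and 1.41e-07). MCM7, the most abundant subunit, was at 364, 362 and 374 CPM with TGF-β1 and 401, 417 and 409 CPM without, the smallest fall of the 6 at 10.4% (-0.16 ± 0.031, adjusted p = 5.62e-05). Exons of TPRA1 and AC023593.1 on the other strand cover 23.6% of the exonic bases of MCM2, and TPRA1 fell by 0.29 on the log2 scale (adjusted p = 0.00167). Strand use in the counting was not stated, so reads of these genes cannot be told apart where they overlap.

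Per gene length the ring subunits were not even. By the authors' FPKM values, MCM7 averaged 81.3 ± 1.61 with TGF-β1 and 90.5 ± 1.57 without (SD, n = 3 each), MCM3 71.8 ± 1.59 with it and 84.1 ± 0.62 without, and MCM4 47.3 ± 1.18 with it and 55.1 ± 1.28 without. MCM2 (23.6 ± 0.59 with TGF-β1 and 32.3 ± 1.84 without), MCM5 (21.9 ± 1.57 with and 26.2 ± 1.07 without) and MCM6 (19.4 ± 0.52 with and 24.5 ± 0.45 without) formed a lower tier. The order of the 6 means was the same in both groups. MCM2 in the TGF-β1 libraries, at 23.0 to 24.2 FPKM, overlapped MCM5 at 20.1 to 23.2 FPKM, so their order there was within the spread.

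**Figure D2:**
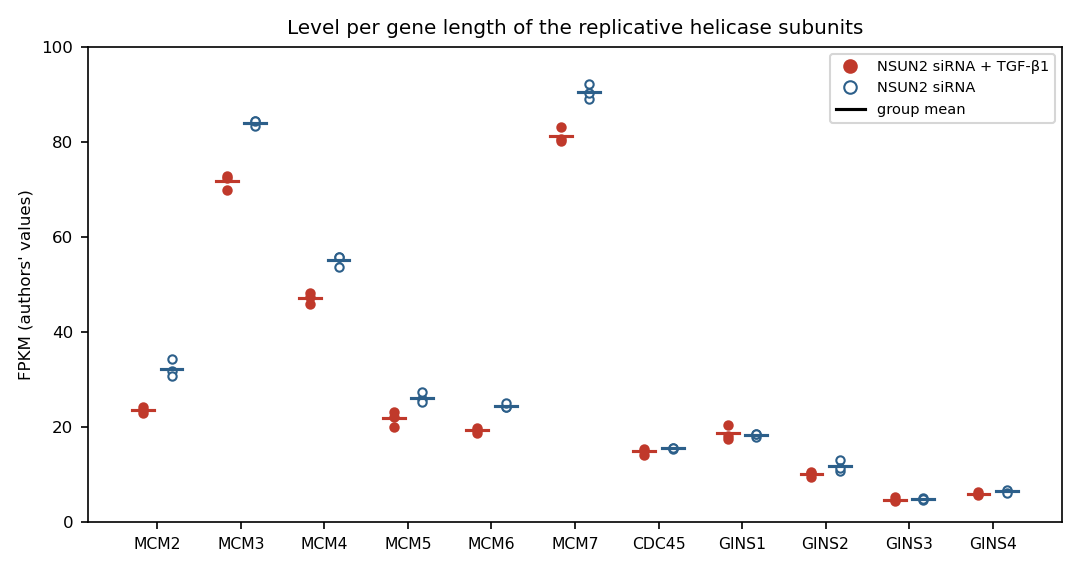
Authors' FPKM (vertical axis) of the MCM2 to MCM7 ring, CDC45 and the GINS subunits, with NSUN2 siRNA plus TGF-β1 left of NSUN2 siRNA for each gene; points are libraries and lines group means. The means of the 6 ring subunits are lower with TGF-β1, such as 81.3 with and 90.5 without for MCM7 and 23.6 with and 32.3 without for MCM2, while the GINS1 and GINS3 libraries overlap.

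Of the 5 partners that turn the ring into the active helicase, 1 passed as lower, where 18.7% of all tested genes were lower and 20.2% higher. A share of 1 in 5 is near that of all tested genes, and so is no result about these partners. CDC45 was at 43.9, 41.8 and 45.4 CPM with TGF-β1 and 45.8, 45.6 and 45.8 CPM without, a change of -0.066 with a 95% interval of -0.19 to 0.055 that did not pass, although the groups did not overlap. Among the 4 GINS subunits, GINS2 passed (32.3, 35.9 and 34.8 CPM with TGF-β1, against 36.2, 44.4 and 38.5 CPM without; -0.21 ± 0.072, adjusted p = 0.0171). Its call was kept in 13 of 18 alternative settings and lost without siRNA replicate 2 and without TGF-β1 replicate 1, among others (adjusted p up to 0.221). GINS1, GINS3 and GINS4 had values of 0.026, -0.028 and -0.12, with 95% intervals of -0.076 to 0.13, -0.19 to 0.13 and -0.26 to 0.015. Set against each other within a library, where no scaling between libraries enters, the summed FPKM of the ring was 5.00, 4.85 and 4.69 times that of CDC45 and GINS in the TGF-β1 libraries and 5.59, 5.33 and 5.48 times in the siRNA libraries. The ratio was therefore lower in all 3 TGF-β1 libraries. It was chosen after the values were seen and was not tested.

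Among MCM10 and the licensing and loading factors CDC6, CDT1, ORC1 and ORC6, none passed as lower. Only MCM10 passed as higher, where 20.2% of all tested genes were higher and 18.7% lower. MCM10, which acts when the loaded ring is activated, was at 38.4, 39.6 and 38.4 CPM with TGF-β1 and 33.8, 30.1 and 36.1 CPM without, a rise of 0.22 ± 0.070 (adjusted p = 0.00978). That call was lost with library totals (0.10, adjusted p = 0.256), without siRNA replicate 2 and with unfiltered FPKM values. CDC6, which helps the origin recognition complex load the ring, was at 130, 125 and 125 CPM with TGF-β1 and 119, 119 and 118 CPM without. All 3 TGF-β1 libraries were above the others, but the change of 0.089 did not pass (adjusted p = 0.0724), and it was -0.030 with library totals. CDT1, the loading factor that CDC6 works with, had a value of -0.064 (95% interval -0.17 to 0.043). ORC1 and ORC6, subunits of the origin recognition complex, had values of 0.018 and 0.089 with intervals of -0.11 to 0.15 and -0.024 to 0.20, and both were below 0 with library totals.

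Of the 13 polymerase, clamp and lagging-strand genes 6 were lower (46.2%) and 0 higher, where 18.7% of all tested genes were lower and 20.2% higher. PCNA (ENSG00000132646, chromosome 20, 5114953 to 5126626, minus strand, hg38), the sliding clamp and the most abundant member per length, was at 231, 237 and 238 CPM with TGF-β1 and 301, 306 and 307 CPM without. The log2 fold change was -0.37 ± 0.033 (adjusted p = 7.54e-13), a fall of 22.8% with a gap between groups far wider than the spread within them. LIG1, which joins Okazaki fragments, had 61.0, 55.3 and 56.5 CPM with TGF-β1 and 70.7, 75.5 and 71.4 CPM without (-0.33 ± 0.052, adjusted p = 1.09e-06). FEN1, the nuclease that trims the flaps before joining, fell less, with 173, 186 and 185 CPM with TGF-β1 and 194, 198 and 202 CPM without (-0.13 ± 0.036, adjusted p = 0.00479). The FEN1 call was lost without TGF-β1 replicate 1 and with unfiltered FPKM values.

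Among polymerase subunits, POLA1, the catalytic subunit of the polymerase that lays primers, had 91.5, 88.5 and 87.0 CPM with TGF-β1 and 107, 106 and 107 CPM without (-0.26 ± 0.043, adjusted p = 2.75e-06). POLE, the leading-strand polymerase, had 204, 205 and 203 CPM with TGF-β1 and 217, 224 and 209 CPM without (-0.085 ± 0.035, adjusted p = 0.0499), and only 4 of 18 alternatives kept that call. POLA2, PRIM1 and POLE2, accessory and primase subunits with low counts, had values of -0.20, -0.11 and -0.22 with standard errors of 0.10, 0.12 and 0.091 and did not pass. POLD1, the lagging-strand polymerase, had a value of 0.020 with an interval of -0.085 to 0.13. Of the 4 small clamp loader subunits RFC2 to RFC5, RFC2 passed, with 75.3, 77.8 and 69.5 CPM with TGF-β1 and 86.6, 93.7 and 88.9 CPM without (-0.27 ± 0.049, adjusted p = 1.15e-05). That is 25.0% of these subunits, where 18.7% of all tested genes were lower. RFC3, RFC4 and RFC5 had values of 0.047, -0.063 and -0.089, and their groups overlapped. RFC1, the large subunit and not among the 43, was also lower, with 128, 132 and 121 CPM with TGF-β1 and 140.2, 137 and 141 CPM without (-0.13 ± 0.0397, adjusted p = 0.00628; kept in 16 of 18 alternatives). The FPKM ratio of RFC2 to RFC3 was 1.23, 1.33 and 1.03 in TGF-β1 libraries and 1.41, 1.55 and 1.51 in siRNA libraries, lower in all 3, a ratio chosen after the values were seen.

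**Figure D3:**
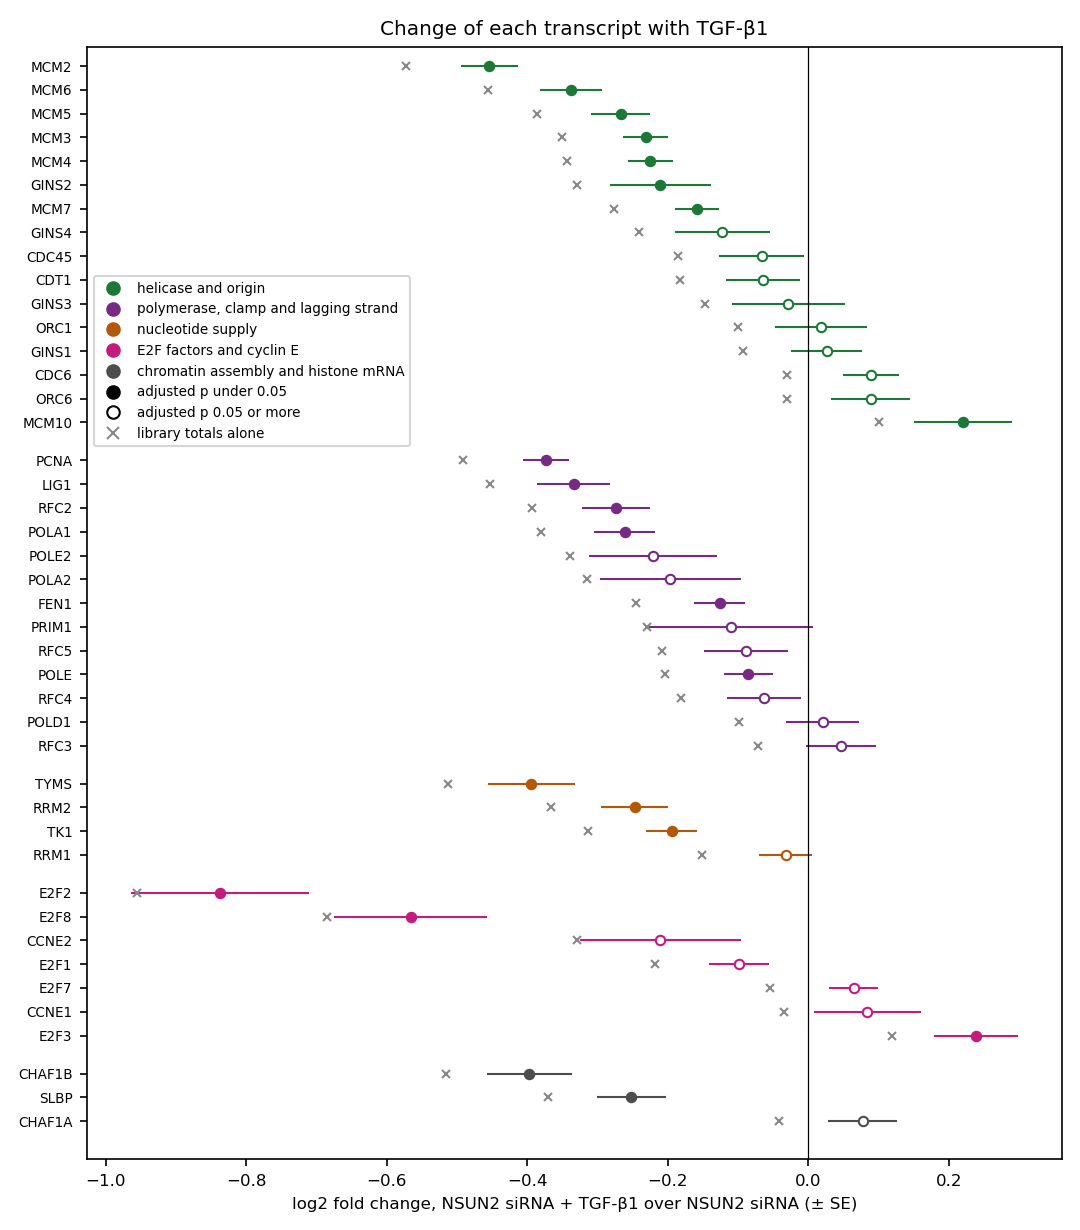
Log2 fold change of NSUN2 siRNA plus TGF-β1 over NSUN2 siRNA with its standard error for each of the 43 transcripts, coloured by role and filled where the adjusted p is under 0.05; crosses give the value with library totals alone. Filled points lie left of 0 for 20 transcripts and right of 0 for MCM10 and E2F3, and the crosses lie further left throughout.

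In nucleotide supply, 3 of 4 genes passed as lower, where 18.7% of all tested genes were lower and 20.2% higher. TYMS, which makes thymidylate, was at 35.7, 37.7 and 36.5 CPM with TGF-β1 and 49.4, 46.0 and 49.0 CPM without (-0.39 ± 0.062, adjusted p = 1.20e-06). Exons of ENOSF1 and TYMSOS on the other strand cover 46.6% of its exonic bases, and ENOSF1 fell by 0.62 (adjusted p = 7.18e-09), and the reads of the strands cannot be told apart in this value. TK1, the thymidine kinase that salvages thymidine, had 159.9, 156 and 159 CPM with TGF-β1 and 179.5, 188 and 176 CPM without (-0.19 ± 0.037, adjusted p = 2.68e-05). RRM2, the small subunit of ribonucleotide reductase, had 72.4, 67.6 and 69.9 CPM with TGF-β1 and 83.1, 81.3 and 84.7 CPM without (-0.25 ± 0.048, adjusted p = 3.95e-05).

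RRM1, the large subunit, had 176, 161 and 174 CPM with TGF-β1 and 172, 172 and 179 CPM without, a value of -0.032 (95% interval -0.11 to 0.045), and the groups overlapped. The FPKM ratio of RRM1 to RRM2 was 3.101, 3.04 and 3.17 with TGF-β1 and 2.64, 2.70 and 2.69 without. The ratio was higher in all 3 TGF-β1 libraries, was chosen after the values were seen and was not tested.

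Of the 7 E2F and cyclin E genes 2 were lower (28.6%) and 1 higher (14.3%), where 18.7% of all tested genes were lower and 20.2% higher. The genes called were all among the 5 E2F factors. Counts this small and this near the background are no result about the E2F factors as a family. E2F2 (ENSG00000007968, chromosome 1, 23506430 to 23531220, minus strand, hg38), an activator, was at 6.75, 5.97 and 7.07 CPM with TGF-β1 and 11.7, 11.2 and 12.4 CPM without. Its log2 fold change of -0.84 ± 0.13 (adjusted p = 5.47e-07) was the largest of the 43. E2F8, an atypical repressor, had 9.42, 11.2 and 10.7 CPM with TGF-β1 and 15.7, 14.4 and 16.3 CPM without (-0.57 ± 0.11, adjusted p = 3.61e-05). E2F3, also an activator, was higher, with 55.6, 51.7 and 54.0 CPM with TGF-β1 and 47.9, 42.3 and 46.5 CPM without (0.24 ± 0.059, adjusted p = 0.00108), a call lost with library totals (0.12, adjusted p = 0.103).

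E2F1, the most abundant of them per length, was at 108, 101 and 101 CPM with TGF-β1 and 111, 112 and 109 CPM without. The groups did not overlap, but the change of -0.10 ± 0.042 did not pass (adjusted p = 0.0620). E2F7 was at 199.8, 204 and 211 CPM with TGF-β1 and 199.6, 193 and 196 CPM without, with a value of 0.065 (95% interval -0.0064 to 0.14) that was -0.054 with library totals. The 2 factors that fell were thus the scarce ones, at 1.18 and 2.45 FPKM with TGF-β1 and 2.09 and 3.62 FPKM without. The summed level of the 5 factors was 379, 374 and 384 CPM with TGF-β1 and 386, 372 and 381 CPM without, and these overlapped. Within libraries the FPKM ratio of E2F3 to E2F2 was 8.71, 9.16 and 8.07 with TGF-β1 and 4.33, 3.99 and 3.95 without, and that of E2F7 to E2F8 was 13.9, 12.03 and 12.98 with TGF-β1 and 8.36, 8.80 and 7.89 without. Both ratios were chosen after the values were seen.

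Cyclin E partners CDK2 at the start of S phase, and neither gene passed. CCNE1 had a value of 0.084 (95% interval -0.071 to 0.24; -0.034 with library totals). CCNE2 had -0.21 (-0.44 to 0.021), with 11.4, 10.4 and 10.8 CPM with TGF-β1 and 12.6, 11.1 and 13.96 CPM without.

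**Figure D4:**
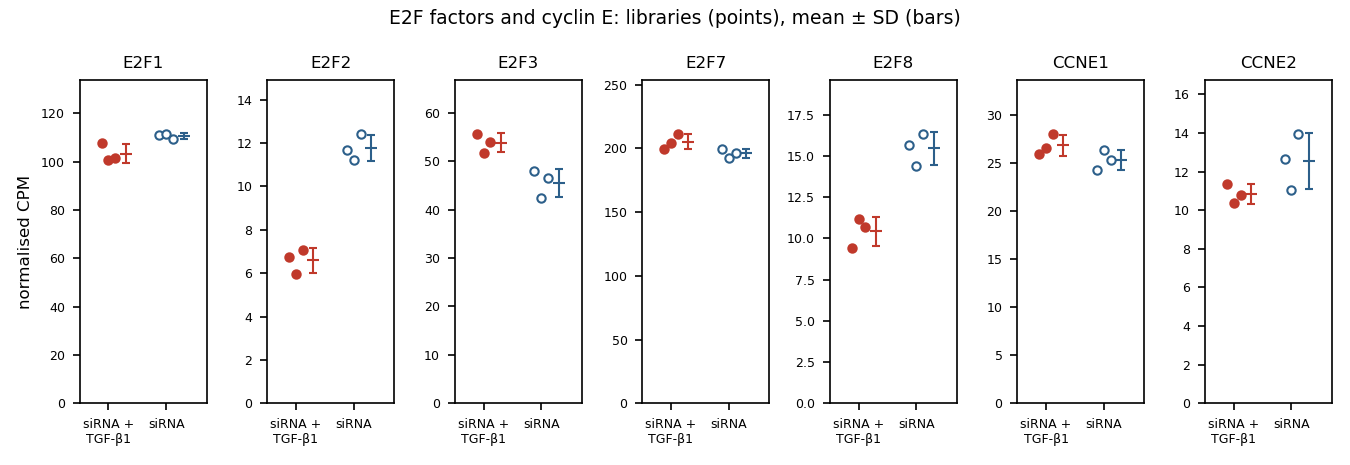
Normalised CPM of the E2F factors and the cyclin E genes, NSUN2 siRNA plus TGF-β1 left of NSUN2 siRNA in each panel, with the vertical axis from 0; points are libraries and bars mean ± SD (n = 3). E2F2 and E2F8 lie lower with TGF-β1 and E2F3 higher, while CCNE1 and CCNE2 overlap.

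Chromatin assembly factor 1 places new histones behind the fork, and its subunits differed. CHAF1B was at 40.8, 44.6 and 44.1 CPM with TGF-β1 and 53.3, 56.0 and 61.5 CPM without (-0.40 ± 0.061, adjusted p = 6.88e-07). CHAF1A had 74.3, 80.0 and 76.5 CPM with TGF-β1 and 71.1, 75.7 and 72.1 CPM without, a value of 0.078 (95% interval -0.021 to 0.18) that was -0.041 with library totals. SLBP, which binds the stem-loop of histone mRNAs, fell (68.8, 74.1 and 75.0 CPM with TGF-β1, against 88.1, 89.9 and 81.7 CPM without; -0.25 ± 0.049, adjusted p = 4.61e-05). The FPKM ratio of CHAF1A to CHAF1B was 2.17, 2.14 and 2.07 with TGF-β1 and 1.59, 1.61 and 1.395 without, again chosen after the values were seen.

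The members differed in level and precision. The 13 members at 100 CPM or more had a median standard error of 0.0364, and 9 were lower and 0 higher, where 22.3% of all tested genes at that level were lower and 44.8% higher. Of the 22 members from 30 to 100 CPM 9 were lower and 2 higher, where 22.6% of all tested genes at that level were lower and 30% higher. Of the 8 below 30 CPM, with a median standard error of 0.105, 2 were lower, where 16.4% of all tested genes were lower and 10.4% higher, so the share of low members called is near the background. POLE2, which missed the threshold at an adjusted p of 0.0515, was called lower in 4 of the 18 alternatives. The call was kept in all 18 alternatives for 17 of the 20 lower members, the exceptions being POLE, GINS2 and FEN1. Exons of other genes covered none of the exonic bases of 24 members and more than 10% in 9. Among these were POLA2 (35.1%), RRM2 (20.2%) and PRIM1 (16.2%) on the same strand, and CCNE2 (37.1%) and RFC5 (10.6%) on the other. Genes overlapping PRIM1 include the abundant NACA (215 CPM with TGF-β1 and 189 without, adjusted p = 0.000583). Those overlapping RFC5 include WSB2 (188 CPM with and 150 without, adjusted p = 1.04e-09). The part of such reads in the PRIM1 and RFC5 values was not tested.

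Of 60 replication and E2F/RB genes outside the 43, 13 were lower and 3 higher (21.7% and 5.00%), with a median of -0.051. With TMM factors the share lower is near that of all tested genes (18.7% lower and 20.2% higher), and so is no result about these genes. SAMHD1, which degrades nucleotides, had 128, 137 and 142 CPM with TGF-β1 and 173, 174 and 185 CPM without (-0.39 ± 0.040, adjusted p = 1.06e-10). The groups did not overlap. RRM2B, an alternative small subunit of the reductase, had 27.9, 25.2 and 26.1 CPM with TGF-β1 and 36.8, 32.4 and 33.7 CPM without (-0.38 ± 0.074, adjusted p = 4.68e-05). ASF1B, a histone chaperone, had 75.4, 76.8 and 74.6 CPM with TGF-β1 and 91.0, 93.6 and 98.3 CPM without (-0.32 ± 0.046, adjusted p = 2.23e-07).

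The 3 genes called higher had groups that did not overlap. Of the 60, 6 lay above without overlap, where 24.1% of all tested genes did. These 3 were picked by their call, so their separation is no further result. POLD4, a small polymerase subunit, had 6.87, 8.27 and 8.30 CPM with TGF-β1 and 6.43, 5.48 and 5.93 CPM without (0.40 ± 0.15, adjusted p = 0.0276). E2F4, which works mainly in repressor complexes, had 109, 107 and 107 CPM with TGF-β1 and 97.2, 96.7 and 94.9 CPM without (0.16 ± 0.042, adjusted p = 0.00178). POLE3, an accessory polymerase subunit, had 137, 139.8 and 137 CPM with TGF-β1 and 132, 128 and 119 CPM without (0.13 ± 0.0405, adjusted p = 0.0110). With library totals none of these 3 was called. On that scale 35 of the 60 were lower and 0 higher, where 31.1% of all tested genes were lower and 11.7% higher. CCNA2 and CDK2, the kinase pair of S phase, had values of -0.052 and 0.039 and did not pass.

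**Figure D5:**
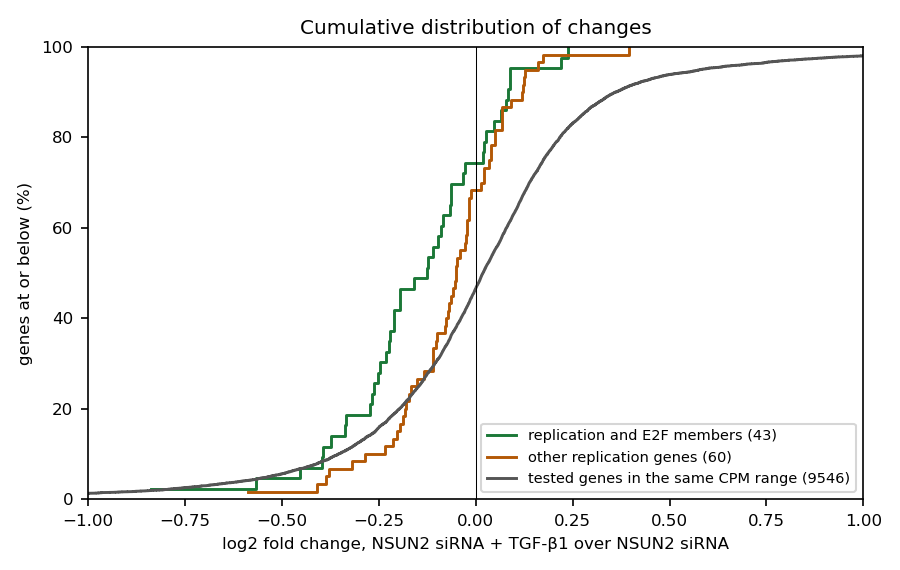
Cumulative share of genes (vertical axis, %) at or below each log2 fold change of NSUN2 siRNA plus TGF-β1 over NSUN2 siRNA, for the 43 members, the 60 other replication genes and the 9546 tested genes in the members' range of level. The median is -0.13 for the members, -0.051 for the other replication genes and 0.019 for the tested genes in that range.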

How the data were processed

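RNA sequencing gave 6 libraries of LX-2 cells, 3 with NSUN2 siRNA and TGF-β1 and 3 with NSUN2 siRNA alone, grouped by their titles. The submitters' processing notes list fastp, HISAT2 2.2.1 and build hg38; counting tool, strand setting and annotation release were not stated. The deposited count table holds whole reads per gene, without normalization. In the deposited FPKM values the authors scaled each count by gene length and by a library size of 0.984 to 1.075 times the total. Both tables hold 6 further per-sample columns that matched no sample here and were not used. Gene identifiers were matched to GENCODE 29 for positions and exon overlaps.

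Counts were tested with edgeR 4.0.16 in R 4.3.3 (filterByExpr, minimum count 10 and minimum total 15; TMM factors; robust quasi-likelihood fit; two-sided; group as the only term) over 17215 genes, with Benjamini-Hochberg adjusted p under 0.05. The standard error was the size of the log2 fold change over the square root of F, and 95% intervals use the fit's degrees of freedom. Scripts were tested on simulated data. The 18 alternatives were other scalings, filters and tests (DESeq2 1.42.0, limma 3.58.1), FPKM on the log2(value + pseudocount) scale with pseudocounts of 1 and 0.1, a replicate block and each library left out. In each role group, values in every library are given for up to 5 called members with the largest change, the most abundant member and each member called higher, and for up to 4 other replication genes each way with at least 5 CPM; some further members were named after their values were seen. The values of 1 other replication gene are not reported here. Members and lists were chosen with earlier results of these data known.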

Additional observations from a re-analysis of the deposited data

How the results depend on the processing

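The median log2 fold change of the members was -0.13, and the members' median level had a pooled SD of 0.0080 between libraries of a group. The median change moved by more than that with upper-quartile factors (-0.17) and library totals (-0.24). It ran from -0.17 to -0.12 as each library was left out, so leaving out a single library could also move it by more than that spread. Library totals gave 30 members lower and 0 higher, 35 and 0 of the other replication genes, and 5354 and 2019 of all tested genes. Upper-quartile factors gave 23 lower and 1 higher of the other replication genes. Without a filter, log2(FPKM + 1) values gave 1 of the members higher, 7 lower and 1 higher of the other replication genes, and 1978 for all tested genes lower. Leaving out each library gave 18 to 20 members lower and 1 to 2 higher, 11 to 14 lower and 1 to 4 higher of the other replication genes, and 2850 to 3009 lower and 3089 to 3366 higher of all tested genes. The cause of these shifts was not tested.

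The sign turned only for members that had not passed. With library totals the values were -0.030 for CDC6, -0.093 for GINS1, -0.10 for ORC1, -0.030 for ORC6, -0.099 for POLD1, -0.071 for RFC3, -0.054 for E2F7, -0.034 for CCNE1 and -0.041 for CHAF1A. With upper-quartile factors they were -0.019 for GINS1, -0.027 for ORC1 and -0.025 for POLD1. With single libraries left out the value ran from -0.034 to 0.074 for GINS1, -0.093 to 0.028 for GINS3, -0.012 to 0.068 for ORC1, -0.024 to 0.077 for POLD1, -0.0092 to 0.098 for RFC3 and -0.051 to 0.011 for RRM1. Same-numbered libraries did not deviate together (correlations of -0.0049, 0.011 and -0.0091). With 3 libraries per group this cannot show whether they came from paired cultures, which the labels do not state. The replicate block gave 19 members lower and 2 higher. The members under 30 CPM had the widest errors.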
